A study of Homo sapiens with 6 samples.

Results

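The genes described here encode the NRF2 pathway and the cell's main defences against peroxide and superoxide, measured as messenger RNA in HepG2, a human liver tumour cell line. They were chosen by name: 38 genes for NRF2 control, glutathione, thioredoxin, peroxidases, NADPH supply, carbonyl and quinone enzymes and haem breakdown. Of these, 36 were among the 19846 genes of the deposited table and all 36 passed the filter on low counts, while ME1 and CBR3 were not analysed here. The 3D group was 3 samples of HepG2 from an interwoven hollow fiber bioreactor, held in a medium mixed evenly from EMEM and DMEM, with 10% serum, antibiotics and a glutamine supplement. That medium was recirculated at 23.5 mL/min and fed at 2 mL/hour under air with 5% CO2. The 2D group was 3 samples of HepG2 on multiwell plates in EMEM, seeded at 200000 cells per square centimetre, with the medium renewed every 2 days under 5% CO2. Both were kept at 37 °C at passages 7 to 9, and the labels name no oxidant or NRF2 activator for either. Medium, feeding and culture form differed together and cannot be told apart. The sources used here give neither the serum on the plates nor how long the cells were grown.

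NRF2, encoded by NFE2L2, is a transcription factor that KEAP1 marks for destruction. When oxidants or electrophiles modify KEAP1, NRF2 escapes, pairs with a small MAF protein and binds the antioxidant response element in front of its target genes. The targets make and recycle glutathione and thioredoxin, supply the NADPH that both need, and reduce quinones and carbonyls; liver cells use the same set to handle drugs and bile products. Peroxiredoxins draw their electrons from thioredoxin, glutathione peroxidases from glutathione, and superoxide dismutases make the peroxide that both remove.

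Total counts were 9530795 to 15897621 in 3D and 16270361 to 17943513 in 2D, and 3D replicate 1 had the fewest. Whether the 3 samples of a group were grown separately is not stated, so p-values measure only the spread between these samples, which may be technical. All 8 hepatocyte markers examined were detected, and 1 of them rose, 1 fell and 6 did not pass the test. Markers of other cells were low: the summed level of the 3 fibroblast genes measured, of 8 listed, was 9.28 to 21.2 CPM in 3D and 7.46 to 15.8 CPM in 2D (COL1A1 higher, PDGFRB lower, THY1 at 0 in 3D replicates 1 and 3), and that of 4 endothelial genes, of 7 listed, 3.02 to 5.81 CPM in 3D and 2.22 to 4.91 CPM in 2D (0 called). Here CPM is the usual depth-scaled count, with library totals adjusted by TMM. The 4 blood and macrophage genes, of 8 listed, summed to 437 to 1015 CPM in 3D and 980.3 to 1477 CPM in 2D, nearly all of it LYZ, with CD68 the 1 gene called, higher in 3D, and CD14 at 1.59 to 3.10 CPM in 3D and 1.17 to 1.82 CPM in 2D. Their part in the results below was not tested. In bulk RNA, fewer cells of a type and less RNA per cell cannot be told apart.

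Most of the defence genes were more abundant in 3D, while none of the 4 genes that control NRF2 passed the test. Of the 36 genes, 20 were higher and 2 lower in 3D and 14 did not pass (edgeR, adjusted p under 0.05 over all 15314 genes tested). That is 55.6% higher and 5.56% lower, beside 19.0% of all tested genes called higher, 17.6% called lower and 36.6% called in either direction. The genes were chosen with earlier results of these data known, so these shares describe the set and are no test of it. The median log2 fold change, 3D over 2D, was 0.52 for these genes and 0.02 for all tested genes. In 22 genes all 3D libraries lay above all 2D libraries, and in 3 genes below, which is 61.1% and 8.33%, beside 25.6% and 24.9% of all tested genes. Fold changes in this series moved with transcript length, and many of these genes are short. With length and GC content corrected, 17 were higher and 3 lower, with a median of 0.33. That correction called 5307 of all 15314 genes in either direction, beside 5607 without it.

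**Figure D1:**
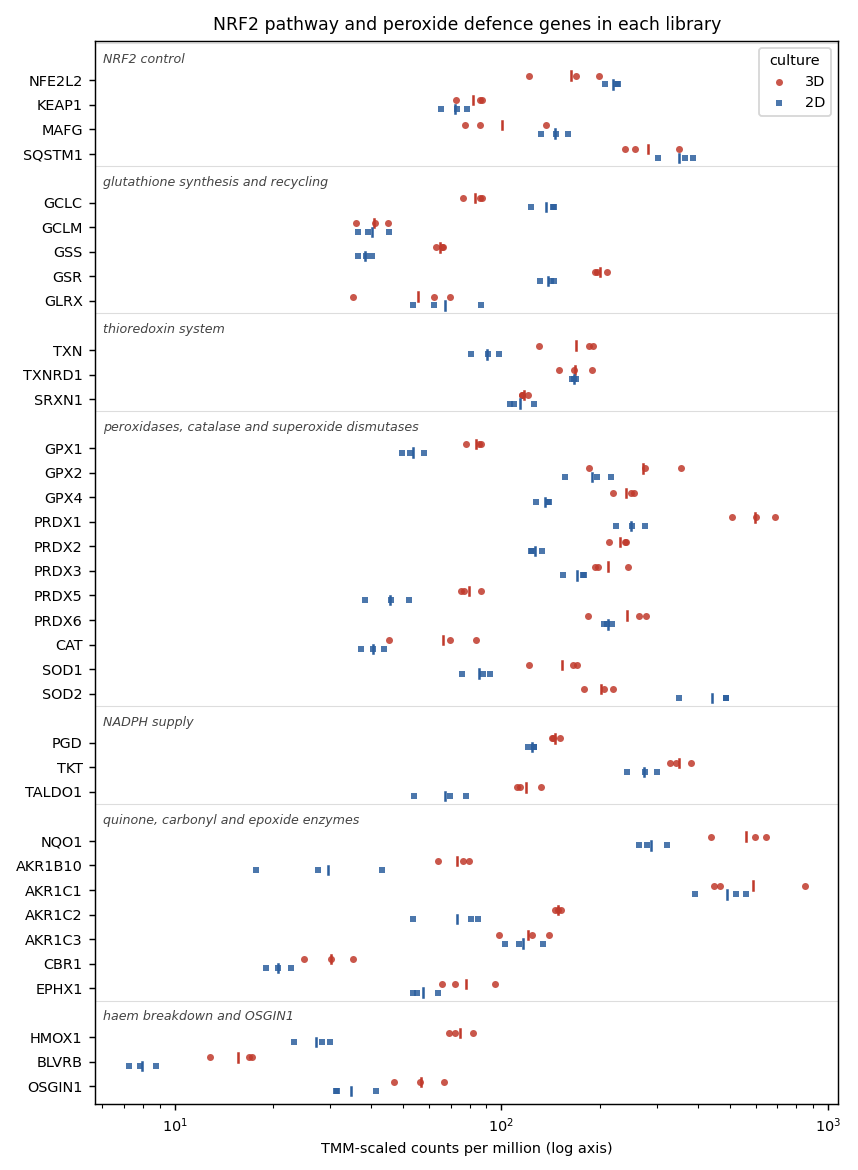
Level of each of the 36 genes in each library, as TMM-scaled CPM on a log axis; circles are 3D libraries, squares 2D libraries, and vertical strokes the group means (n = 3 each). The 3D circles lie to the right of the 2D squares for HMOX1, PRDX1, NQO1, AKR1B10 and TXN, to the left for SOD2 and GCLC, and among them for TXNRD1, SRXN1 and GCLM.

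None of the 4 genes of NRF2 control passed the edgeR test, and 3 of them had negative log2 fold changes. NFE2L2 (chromosome 2, 177227595 to 177392698, hg38) had 122, 169.7 and 199 CPM in 3D replicates 1 to 3, against 228, 207 and 226 CPM in 2D replicates 1 to 3. Every 3D library lay below every 2D library, 3D replicate 3 only narrowly. The log2 fold change was −0.43 (SE 0.16, edgeR adjusted p = 0.0588), just outside the threshold. It was inside it with DESeq2 (adjusted p = 0.0342), with the replicate block (edgeR adjusted p = 0.0380), with protein-coding genes only (0.0464) and without 3D replicate 3 (log2 −0.60, edgeR adjusted p = 0.0214). The deposited span of NFE2L2 overlaps, at its edge only, AGPS on the other strand, a gene that fell by 1.03 on the log2 scale. Since strand handling is not given, reads of the 2 genes may be mixed, and the part of AGPS in the NFE2L2 value was not tested.

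KEAP1, the adaptor that presents NRF2 to the CUL3 ubiquitin ligase, had 86.3, 72.9 and 87.3 CPM in 3D, against 73.1, 65.4 and 78.5 CPM in 2D. The groups overlapped (log2 0.18, SE 0.13, edgeR adjusted p = 0.279). MAFG, a small MAF partner of NRF2, had 86.3, 77.7 and 137 CPM in 3D and 147, 160.3 and 132 CPM in 2D. Here 3D replicate 3 lay inside the 2D range while the other two lay well below it. Its log2 fold change was −0.54 (SE 0.20, edgeR adjusted p = 0.0501), and 10 of 18 alternative settings called it lower. Among them were the correction for length and GC content (log2 −0.77, edgeR adjusted p = 0.0120) and the run without 3D replicate 3 (log2 −0.84, edgeR adjusted p = 0.00243). The deposited span of MAFG overlaps SIRT7 on the same strand, a gene that rose (log2 0.50, edgeR adjusted p = 0.0129). The part of SIRT7 in the MAFG value was not tested. SQSTM1, the autophagy receptor p62, which binds KEAP1 and is itself an NRF2 target, had 256, 239 and 351 CPM in 3D and 364, 387 and 302 CPM in 2D. Again 3D replicate 3 was the one inside the 2D range (log2 −0.32, edgeR adjusted p = 0.150, and log2 −0.51 with 0.0273 without that library).

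Glutathione genes split by step. GCLC, the catalytic subunit of the rate-limiting glutamate-cysteine ligase, fell, while GSS, which adds glycine to complete glutathione, and GSR, which reduces oxidised glutathione with NADPH, rose. GCLC (chromosome 6, 53497341 to 53616971) had 76.3, 87.2 and 86.1 CPM in 3D, against 145, 144 and 123 CPM in 2D. The groups were well apart, at a log2 fold change of −0.72 (SE 0.12, edgeR adjusted p = 0.00106). GSS had 63.2, 66.0 and 66.2 CPM in 3D and 36.4, 38.6 and 40.2 CPM in 2D. The groups lay far apart beside their spread. Its fold change was 1.69 (log2 0.76, SE 0.12, edgeR adjusted p = 0.000582). GSR averaged 200.2 ± 8.88 CPM in 3D and 139 ± 7.12 CPM in 2D (SD, n = 3 each), a rise of 1.44-fold (edgeR adjusted p = 0.00427).

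The modifier subunit GCLM, which lowers the substrate needs of GCLC, had 35.9, 45.0 and 41.1 CPM in 3D, against 45.3, 36.4 and 39.0 CPM in 2D. Its groups overlapped throughout, and the 95% interval of the log2 fold change was −0.29 to 0.32. The transcript used here for GCLM has 4857 bases, and the correction for length and GC content gave a log2 fold change of 0.35 (edgeR adjusted p = 0.0411). GLRX, glutaredoxin, which frees proteins of bound glutathione, ranged from 35.2 to 69.6 CPM in 3D and from 53.6 to 86.5 CPM in 2D. Its lowest value was in 3D replicate 1 and its highest in 2D replicate 2, and it did not pass (log2 −0.27, SE 0.26, edgeR adjusted p = 0.449). The correction for length and GC content, fitted with the replicate block, called it lower (log2 −0.56, edgeR adjusted p = 0.0163), and RHOBTB3, whose span overlaps GLRX on the other strand, fell by 1.04.

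In the thioredoxin system TXN rose, while TXNRD1 and SRXN1 did not pass the test. TXN, thioredoxin, had 130.3, 191 and 186 CPM in 3D, against 98.3, 81.0 and 91.3 CPM in 2D. All 3D libraries were higher, 3D replicate 1 least, at 1.88-fold (log2 0.91, SE 0.16, edgeR adjusted p = 0.00117). TXNRD1, the selenium-containing reductase that returns electrons from NADPH to thioredoxin, had 167, 189 and 149.9 CPM in 3D and 167, 165 and 169 CPM in 2D. The 2D libraries were nearly equal and the 3D libraries lay on both sides of them, so that the log2 fold change was 0.01 with a 95% interval of −0.25 to 0.28. SRXN1, sulfiredoxin, which restores over-oxidised peroxiredoxins, had 116, 116 and 121 CPM in 3D and 109.7, 126 and 106 CPM in 2D (95% interval of the log2 fold change −0.20 to 0.30). Of the SRXN1 windows of 50 bases, 84.7% also occur in transcripts of AL121758.1, so its level depends on how the authors counted reads that match more than 1 gene.

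The antioxidant response element was searched for as TGACNNNGC, where N is any base, on both strands of the RefSeq promoters (GRCh38.p14, 250 bases before to 50 after the start). A promoter entry was found for 29 of the 36 genes, and 5 of these held a match (17.2%), beside 13.3% of all 35116 promoters. These 5 genes were GCLM, TXNRD1, GPX2, PGD and CBR1, of which CBR1 was the 1 that rose and the other 4 did not pass. The log2 fold changes of CBR1 (0.53) and GPX2 (0.52) were nearly the same, although only CBR1 was called. GSS, GSR, PRDX1, PRDX6, SOD1, AKR1B10 and HMOX1 had no promoter entry and were not searched. All of these but PRDX6 were called higher, so the search left out many of the genes that rose. No match held TGACTCA, the AP-1 motif that this element can contain. That motif was in 1 of the 29 promoters, that of OSGIN1 (3.45%, beside 4.95% of all promoters). A match is only a run of letters, and a window without one says nothing about binding, since elements of several of these genes lie farther out. The promoters of 4 of the 5 genes with a match are shown, and that of PGD is not. They lie at chr1:93909381-93909680 on the minus strand for GCLM, chr12:104215529-104215828 on the plus strand for TXNRD1, chr14:64942696-64942995 on the minus strand for GPX2 and chr21:36069774-36070073 on the plus strand for CBR1. Each is printed 5′ to 3′ with the matches in capitals, those on the opposite strand appearing as their reverse complement.
GCLM: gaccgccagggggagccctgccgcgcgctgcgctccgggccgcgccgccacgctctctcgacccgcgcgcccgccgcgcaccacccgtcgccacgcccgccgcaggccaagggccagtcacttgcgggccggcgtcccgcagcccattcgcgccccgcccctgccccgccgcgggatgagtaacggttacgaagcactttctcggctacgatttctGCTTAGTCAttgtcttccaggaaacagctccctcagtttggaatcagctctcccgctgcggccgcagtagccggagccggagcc
TXNRD1: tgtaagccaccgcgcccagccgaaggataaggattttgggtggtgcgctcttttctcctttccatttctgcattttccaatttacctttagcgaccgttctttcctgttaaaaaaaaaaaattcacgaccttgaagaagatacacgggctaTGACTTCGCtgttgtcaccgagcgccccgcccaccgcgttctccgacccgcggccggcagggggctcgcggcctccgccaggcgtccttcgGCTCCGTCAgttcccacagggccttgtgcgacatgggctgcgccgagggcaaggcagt
GPX2: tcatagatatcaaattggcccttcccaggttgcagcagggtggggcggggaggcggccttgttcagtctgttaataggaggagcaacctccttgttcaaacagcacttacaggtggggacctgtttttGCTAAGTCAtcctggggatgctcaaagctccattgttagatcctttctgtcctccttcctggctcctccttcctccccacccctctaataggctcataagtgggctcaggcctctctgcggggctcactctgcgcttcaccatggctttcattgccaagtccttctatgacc
CBR1: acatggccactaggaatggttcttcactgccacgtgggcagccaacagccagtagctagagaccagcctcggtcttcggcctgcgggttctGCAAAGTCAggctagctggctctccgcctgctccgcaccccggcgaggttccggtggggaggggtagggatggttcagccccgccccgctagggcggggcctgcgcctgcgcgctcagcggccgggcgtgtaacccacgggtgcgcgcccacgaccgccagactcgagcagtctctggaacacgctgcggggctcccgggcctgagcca
The GCLM match, TGACTAAGC on the opposite strand, begins 34 bases before the start. TXNRD1 holds a pair, TGACTTCGC on the gene's strand from 99 bases and TGACGGAGC on the opposite strand from 8 bases before the start. Both TGACTTAGC in GPX2, from 122 bases, and TGACTTTGC in CBR1, from 159 bases before the start, are on the opposite strand.

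Beside 19.0% of all tested genes called higher and 17.6% called lower, 7 of the 11 enzymes that act on peroxide and superoxide rose and 1 fell (median log2 fold change 0.71). PRDX1, the most abundant of them per length, is a cytosolic peroxiredoxin and a known NRF2 target. It had 507, 604 and 688 CPM in 3D, against 251, 225 and 275 CPM in 2D. Even the lowest 3D library was well above the highest 2D library, at 2.40-fold (log2 1.26, SE 0.15, edgeR adjusted p = 0.000149). PRDX2, its close cytosolic relative, had 214, 239 and 241 CPM in 3D and 124, 123 and 133 CPM in 2D (1.83-fold, edgeR adjusted p = 0.000281). PRDX5, found in mitochondria, peroxisomes and the cytosol, rose 1.75-fold, to 79.7 ± 6.26 CPM in 3D against 45.6 ± 7.09 CPM in 2D (SD, n = 3 each, edgeR adjusted p = 0.00119).

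The other peroxiredoxins stood closer to the threshold. PRDX3, the mitochondrial member, had 194, 245 and 198 CPM in 3D and 179, 155 and 178 CPM in 2D. The groups did not overlap but the margin was small (log2 0.32, edgeR adjusted p = 0.0797). It was called without 3D replicate 1 (log2 0.36, edgeR adjusted p = 0.0455) and after the length and GC correction (log2 0.31, edgeR adjusted p = 0.0414). PRDX6, which uses glutathione rather than thioredoxin, had 184, 278 and 264 CPM in 3D and 218, 206 and 211 CPM in 2D. Here 3D replicate 1 lay below the 2D libraries and the other two above (log2 0.19, edgeR adjusted p = 0.342). Without that library it was called higher (log2 0.34, edgeR adjusted p = 0.0281).

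Of the selenium-containing glutathione peroxidases, GPX4 and GPX1 rose. GPX4, which removes lipid peroxides from membranes, had 254, 220.1 and 249 CPM in 3D, against 140.0, 128 and 139 CPM in 2D (1.78-fold, log2 0.83, SE 0.12, edgeR adjusted p = 0.000413). After the length and GC correction its log2 fold change was 0.40 (edgeR adjusted p = 0.00812). GPX1, the general cytosolic enzyme, had 85.6, 86.9 and 78.1 CPM in 3D and 49.8, 58.0 and 52.7 CPM in 2D. It rose 1.56-fold (edgeR adjusted p = 0.00176), but did not pass with length and GC content corrected (log2 0.24, edgeR adjusted p = 0.140), and 20.3% of its windows are shared with the pseudogene GPX1P1. GPX2, an epithelial enzyme and NRF2 target, ranged more widely, at 185, 276 and 356 CPM in 3D and 157, 196 and 217 CPM in 2D. With 3D replicate 1 among the 2D libraries, GPX2 did not pass (log2 0.52, SE 0.22, edgeR adjusted p = 0.0903). It was called without 3D replicate 1 (log2 0.72, edgeR adjusted p = 0.00518), with DESeq2 (adjusted p = 0.0417) and with the replicate block (edgeR adjusted p = 0.0210). With length and GC content corrected, GPX2 was at a log2 fold change of 0.21 (edgeR adjusted p = 0.474).

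CAT, the peroxisomal catalase, had 45.2, 83.7 and 69.6 CPM in 3D, against 40.4, 37.2 and 43.7 CPM in 2D. It rose 1.64-fold (log2 0.71, SE 0.20, edgeR adjusted p = 0.0161), with 3D replicate 1 only just above the 2D libraries. The call was lost without 3D replicate 2 (log2 0.51, edgeR adjusted p = 0.0568), without 3D replicate 3 (log2 0.67, 0.0526), without 2D replicate 1 (log2 0.70, 0.0571) and without 2D replicate 2 (log2 0.64, 0.0637).

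The superoxide dismutases went in opposite directions. SOD1 (chromosome 21, 31659622 to 31668932), the copper and zinc enzyme of the cytosol, had 122, 166 and 171 CPM in 3D and 92.5, 76.0 and 87.8 CPM in 2D, 1.80-fold higher (log2 0.84, SE 0.15, edgeR adjusted p = 0.00136). SOD2 (chromosome 6, 159669057 to 159762530), the manganese enzyme of mitochondria and an inducible gene of inflammation, had 179, 220.2 and 206 CPM in 3D, against 489, 486 and 351 CPM in 2D. Its log2 fold change was −1.13 (SE 0.15, edgeR adjusted p = 0.000335), and it lay between −1.28 and −0.99 in the 18 alternatives. Of the windows of the SOD2 transcript, 33.6% are shared with SOD2-OT1. Among the genes whose deposited spans overlap SOD2, ACAT2 rose (log2 1.67) and WTAP did not pass (log2 −0.04).

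**Figure D2:**
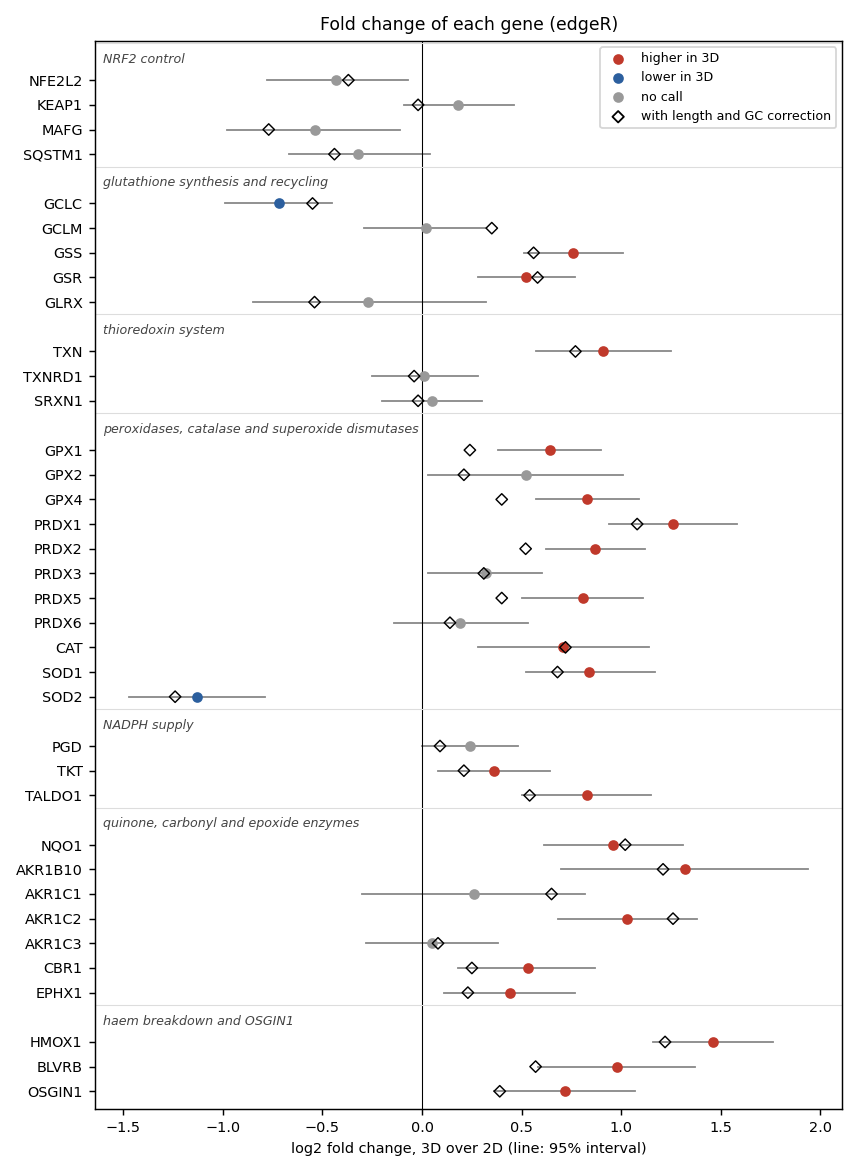
Log2 fold change, 3D over 2D, of each of the 36 genes from edgeR, grouped by role; lines are 95% intervals, filled circles are coloured by call and open diamonds give the value with length and GC content corrected. PRDX1, HMOX1, AKR1B10, AKR1C2 and NQO1 lie to the right of 0.9 by either measure, and SOD2 lies left of −1.

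Of the genes listed under NADPH supply, TALDO1 and TKT, which return pentose phosphates to glycolysis, rose. PGD, the NADPH-producing enzyme among those measured, did not pass. TALDO1 had 112, 114 and 132 CPM in 3D and 77.9, 54.1 and 69.9 CPM in 2D (1.77-fold, log2 0.83, edgeR adjusted p = 0.00144). TKT had 381, 329 and 342 CPM in 3D, against 299.6, 243 and 276 CPM in 2D. The groups did not overlap, and the call was the weakest of those made (log2 0.36, SE 0.13, edgeR adjusted p = 0.0450). It was lost in 11 of 18 alternatives, among them the correction for length and GC content (log2 0.21, edgeR adjusted p = 0.151) and the replicate block (0.0706). Without 1 library, TKT had an edgeR adjusted p of 0.0909 (3D replicate 1, log2 0.28), 0.0743 (3D replicate 3, log2 0.37), 0.0752 (2D replicate 1, log2 0.43), 0.226 (2D replicate 2, log2 0.27) and 0.112 (2D replicate 3, log2 0.36). PGD, an NADPH-producing enzyme of the pentose phosphate pathway, had 143, 151 and 144 CPM in 3D and 126, 121 and 126 CPM in 2D. All 3D libraries were higher, yet by a small margin that did not pass (log2 0.24, edgeR adjusted p = 0.105).

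NQO1, the quinone reductase most used as a readout of NRF2, rose with AKR1B10 and AKR1C2. NQO1 (chromosome 16, 69706996 to 69726952) had 438, 599 and 645 CPM in 3D, against 279, 264 and 321 CPM in 2D (1.95-fold, log2 0.96, SE 0.16, edgeR adjusted p = 0.000946). AKR1B10, an aldo-keto reductase that is often raised in liver tumours, had 63.8, 79.8 and 76.4 CPM in 3D and 43.0, 17.8 and 27.4 CPM in 2D. The 3D libraries agreed closely while the 2D libraries spread widely, and the fold change was 2.50 (log2 1.32, SE 0.27, edgeR adjusted p = 0.00603). Of its windows 11.6% also occur in AKR1B15, its neighbouring copy, which was not analysed here.

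The AKR1C genes encode near-identical reductases of steroids and aldehydes that lie side by side on chromosome 10. AKR1C2 had 146, 149.5 and 152 CPM in 3D and 84.8, 53.6 and 80.9 CPM in 2D, 2.04-fold higher (log2 1.03, SE 0.16, edgeR adjusted p = 0.000723). AKR1C1 had 466, 449 and 848 CPM in 3D, against 522, 391 and 559.7 CPM in 2D, so that 3D replicate 3 stood far above the rest and the other two lay within the 2D range (log2 0.26, SE 0.25, edgeR adjusted p = 0.442). Without 3D replicate 3 its log2 fold change was −0.11, and the correction for length and GC content with the replicate block called it higher (log2 0.58, edgeR adjusted p = 0.0333). AKR1C3 had 140.2, 98.1 and 124 CPM in 3D and 134, 103 and 113 CPM in 2D, with no separation (log2 0.05, edgeR adjusted p = 0.831). Because 50.8% of the AKR1C2 windows and 28.3% of the AKR1C1 windows are found in the other gene, how the authors divided shared reads bears on these levels. The 3 genes summed to 753, 697 and 1124 CPM in 3D and 740.1, 547 and 754 CPM in 2D, which overlap. AKR1C2 made up 23.9%, 25.0% and 15.2% of AKR1C1 plus AKR1C2 in 3D, against 14.0%, 12.1% and 12.6% in 2D.

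CBR1, a carbonyl reductase of the cytosol, had 35.2, 24.9 and 30.1 CPM in 3D and 20.7, 22.7 and 19.0 CPM in 2D (1.44-fold, log2 0.53, edgeR adjusted p = 0.0226). Its call was lost with length and GC content corrected (log2 0.25, edgeR adjusted p = 0.185) and without 3D replicate 1 (log2 0.38, 0.0635), 3D replicate 3 (log2 0.52, 0.0537), 2D replicate 1 (log2 0.51, 0.0796) or 2D replicate 3 (log2 0.46, 0.0936), and with 2D replicate 2 and 3D replicate 1 both left out (log2 0.45, 0.0680). EPHX1, the microsomal epoxide hydrolase, had 65.9, 72.4 and 95.9 CPM in 3D, against 53.5, 55.1 and 64.0 CPM in 2D (1.36-fold, log2 0.44, edgeR adjusted p = 0.0405). It was not called with length and GC content corrected (log2 0.23, edgeR adjusted p = 0.211) or without 3D replicate 3 (log2 0.26, 0.172), 2D replicate 1 (log2 0.38, 0.156), 2D replicate 2 (log2 0.39, 0.137) or 2D replicate 3 (log2 0.52, 0.0518).

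Before the length and GC correction, HMOX1 had the largest fold change of the 36 genes. With that correction AKR1C2 (log2 1.26) and, in the other direction, SOD2 (log2 −1.24) changed slightly more than HMOX1 (log2 1.22). HMOX1 encodes the inducible heme oxygenase, which opens the haem ring to biliverdin, iron and carbon monoxide. HMOX1 (chromosome 22, 35380361 to 35394215) had 72.4, 81.8 and 69.3 CPM in 3D and 28.3, 23.2 and 29.9 CPM in 2D. Even the lowest 3D library was far above the highest 2D library, at a fold change of 2.74 (log2 1.46, SE 0.14, edgeR adjusted p = 5.30e-05). BLVRB, a biliverdin reductase, was the least abundant of the set in CPM, at 12.8, 17.3 and 16.9 CPM in 3D and 7.26, 8.79 and 7.83 CPM in 2D (1.97-fold, log2 0.98, edgeR adjusted p = 0.00180). OSGIN1, a growth inhibitor induced by oxidative stress, had 56.4, 47.1 and 66.9 CPM in 3D, against 31.4, 41.3 and 31.1 CPM in 2D (1.64-fold, edgeR adjusted p = 0.00584). After the length and GC correction OSGIN1 just missed the threshold (log2 0.39, edgeR adjusted p = 0.0584), while HMOX1 stayed at a log2 fold change of 1.22 and BLVRB at 0.57 (edgeR adjusted p = 0.0378).

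Transcript length was followed through the set because it moved with fold change across the whole table. With all tested genes of known length in 10 equal bins, the bin of the shortest had a median log2 fold change of 0.30 and that of the longest −0.40. The 2 shortest bins hold 12 of the 36 genes, among them TXN, PRDX1, GPX4, SOD1 and BLVRB, while the 3 longest bins hold 2, GCLM and AKR1C1. HMOX1 (1822 bases), AKR1B10 (1590 bases) and PRDX1 (1021 bases) lay far above the medians of their bins, which were 0.13, 0.23 and 0.28. NQO1, at 2912 bases, and AKR1C2, at 3756 bases, were in bins with medians of 0.02 and −0.02. GCLC, in the same bin as AKR1C2, and SOD2, in a bin with a median of 0.05, lay far below. MAFG and GLRX lay below the medians of short bins (0.23 and 0.30). Of the 20 calls higher in 3D, 15 were kept after that correction, and GPX1, TKT, CBR1, EPHX1 and OSGIN1 were the 5 lost. Both calls lower in 3D were kept.

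**Figure D3:**
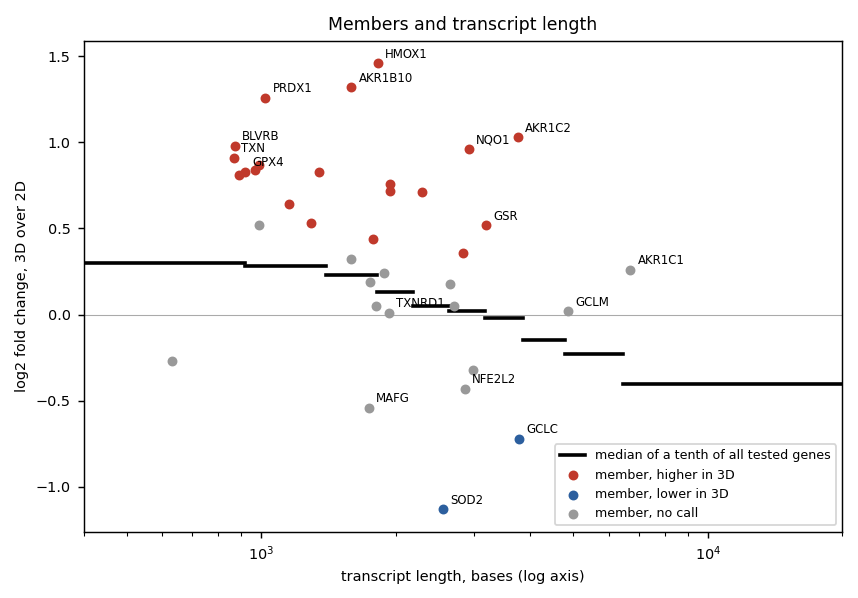
Log2 fold change, 3D over 2D, of the 36 genes against transcript length on a log axis; black bars give the median of each of 10 equal bins of all tested genes over its range of lengths, the last cut off at the edge of the plot. The bars descend from 0.30 to −0.40, and HMOX1, AKR1B10, PRDX1, NQO1 and AKR1C2 stand above them while SOD2, GCLC and MAFG stand below.

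Levels can be compared between genes only per length, as CPM divided by transcript length in kilobases (RPKM, computed here from 1 transcript per gene). On that scale PRDX1 was the highest of the 36 in both cultures, at 588 RPKM in 3D and 245 RPKM in 2D, and GPX2 was second, at 275 RPKM in 3D and 192 RPKM in 2D. SOD2 ranked 17 of 36 in 3D, at 79.0 RPKM, and 3 in 2D, at 173 RPKM. TXN ranked 5 in 3D, at 195 RPKM, and 10 in 2D, at 104 RPKM. At the low end stood GCLM, at 8.37 RPKM in 3D and 8.28 RPKM in 2D, below its partner GCLC at 22.0 RPKM in 3D and 36.2 RPKM in 2D.

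Beyond these 36 genes, 93 other genes of the same pathways were listed, of which 91 were measured and 88 tested. They split more evenly: 29 rose (33.0%) and 20 fell (22.7%), beside 19.0% and 17.6% of all tested genes. Their median log2 fold change was 0.11, beside 0.02 for all tested genes. Without 2D replicate 2 and 3D replicate 1 together, 22 rose and 14 fell, and without 2D replicate 1 alone 18 rose and 14 fell. Without 2D replicate 3 the counts were 19 higher and 14 lower. Calls over the whole table were fewer in these settings too. In either direction they numbered 4229 of 15350 genes, 3766 of 15800 and 4345 of 15799 in that order, beside 5607 of 15314 with all libraries. The counts of the single lists that follow stand beside the same shares of all tested genes, and each list is small.

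Of 12 other NRF2 regulators 7 fell and 1 rose (median −0.48). BACH1, which competes with NRF2 for its binding sites and represses HMOX1, had 32.9, 41.1 and 41.2 CPM in 3D, against 62.4, 71.1 and 74.0 CPM in 2D (log2 −0.85, SE 0.13, edgeR adjusted p = 0.000758). Its transcript is long, at 5669 bases. With length and GC content corrected, BACH1 was still lower, but by less (log2 −0.48, edgeR adjusted p = 0.00797). MAFF, another small MAF, had 16.4, 17.1 and 31.5 CPM in 3D and 40.4, 47.8 and 35.7 CPM in 2D (log2 −0.93, edgeR adjusted p = 0.0140). The MAFF call was lost with 2D replicate 2 and 3D replicate 1 both left out (log2 −0.67, edgeR adjusted p = 0.0825). RBX1, the RING subunit of the CUL3 ligase, rose 1.51-fold (log2 0.60, edgeR adjusted p = 0.0281), a call lost with length and GC content corrected (0.0632) and without any 1 library other than 3D replicate 1 (log2 0.44 to 0.65, edgeR adjusted p = 0.0594 to 0.117).

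Among 12 tested genes of glutathione supply, transport and breakdown 3 rose and 4 fell (median −0.05). SLC7A11, the cystine transporter that feeds glutathione synthesis and is shared by NRF2 and ATF4 as a target, had 55.3, 55.5 and 89.9 CPM in 3D, against 428, 342 and 386 CPM in 2D (log2 −2.52, edgeR adjusted p = 2.92e-05). CTH, which makes cysteine from cystathionine, had a log2 fold change of −1.78 (edgeR adjusted p = 0.00203). ABCC3, a conjugate exporter, rose 1.58-fold (edgeR adjusted p = 0.0280), but not without 3D replicate 1 (log2 0.41, edgeR adjusted p = 0.0750), 2D replicate 1 (log2 0.51, 0.104) or 2D replicate 3 (log2 0.71, 0.0507). Nor did ABCC3 pass with the replicate block (log2 0.64, edgeR adjusted p = 0.0522) or with 2D replicate 2 and 3D replicate 1 both left out (log2 0.52, edgeR adjusted p = 0.0519).

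Of 22 further thioredoxin, glutaredoxin and peroxide genes 9 rose and 2 fell (median 0.31). GPX3, the secreted plasma glutathione peroxidase, had 51.4, 91.6 and 52.8 CPM in 3D and 12.3, 8.24 and 19.8 CPM in 2D (4.85-fold, edgeR adjusted p = 0.00168). TXNIP, which binds and inhibits thioredoxin and responds to glucose, had 125, 98.6 and 63.8 CPM in 3D, against 9.70, 33.0 and 23.8 CPM in 2D. It rose 4.32-fold (log2 2.11, SE 0.44, edgeR adjusted p = 0.00998), though not with the replicate block (0.112), with that block and length and GC content corrected (0.0669) or without 2D replicate 3 (log2 2.16, edgeR adjusted p = 0.0536). SESN2, a stress-induced sestrin and also an ATF4 target, fell by 0.96 on the log2 scale (edgeR adjusted p = 0.00194).

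Among 15 other NADPH genes 3 rose and 3 fell (median 0.10), close to the 19.0% and 17.6% of all tested genes. IDH2, the mitochondrial NADP-dependent isocitrate dehydrogenase, rose 2.82-fold (edgeR adjusted p = 0.000395). ALDH1L2 and MTHFD2, mitochondrial folate enzymes and ATF4 targets, had log2 fold changes of −2.88 and −1.36 (edgeR adjusted p = 6.80e-05 and 0.000139).

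Of 13 tested quinone, carbonyl and aldehyde enzymes 8 rose and 1 fell (median 0.62). ALDH3A1, an aldehyde dehydrogenase and a known target of the aryl hydrocarbon receptor, rose 10.7-fold at a low level, with 2.68, 2.13 and 1.83 CPM in 3D and 0.0626, 0.303 and 0.222 CPM in 2D (edgeR adjusted p = 0.000420). EPHX2, the soluble epoxide hydrolase, fell by 1.07 on the log2 scale (edgeR adjusted p = 0.00159). Of 7 haem and ferritin genes 3 rose and 0 fell (median 0.33). FTL, the ferritin light chain, had 3988, 5339 and 5074 CPM in 3D, against 2900.4, 2969.7 and 2985 CPM in 2D (1.63-fold, edgeR adjusted p = 0.00517), and did not pass with length and GC content corrected (log2 0.37, edgeR adjusted p = 0.0718). FTH1, its heavy-chain partner, had 1677, 2081 and 2169.8 CPM in 3D and 1691, 1614 and 1409 CPM in 2D. It did not pass (log2 0.33, edgeR adjusted p = 0.109), other than without 3D replicate 1 (log2 0.42, edgeR adjusted p = 0.0298).

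**Figure D4:**
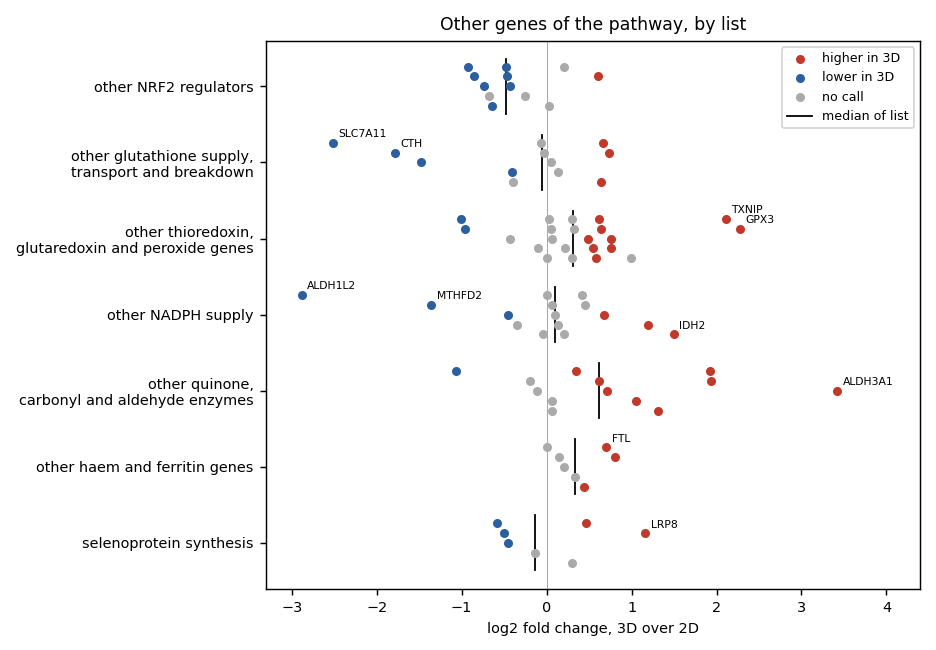
Log2 fold change, 3D over 2D, of 88 other tested genes of the pathway, in 7 lists; points are genes coloured by call and black strokes are list medians. Regulators lie mostly left of 0 (7 of 12 lower), quinone, carbonyl and aldehyde enzymes mostly right of 0 (8 of 13 higher), and SLC7A11 and ALDH1L2 lie farthest left.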

How the data were processed

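Gene expression was measured by RNA sequencing in 3 samples of HepG2 in 3D and 3 in 2D, grouped and numbered by their titles. The authors deposited 1 table of estimated counts, unscaled and partly fractional. STAR 2.4.1d, Partek and hg38 are named, per the submitters' processing notes, and the annotation, counting of reads that match several genes and strand handling are steps that the sources used here do not give. Of the values 61.7% were whole. Counts were rounded, changing no library total by more than 25.0. Libraries of the same group differed beyond sampling noise in every pair (chi-square per degree of freedom 11.2 to 29.5).

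Tests used edgeR 4.0.16 in R 4.3.3: filterByExpr, TMM, a robust quasi-likelihood fit on 6 samples with culture as the term, and Benjamini-Hochberg adjustment over 15314 genes, with a call at an adjusted p under 0.05. Standard errors were derived from the F statistic. CPM used TMM-scaled totals. DESeq2 1.42.0 and limma 3.58.1 were alternatives, in 18 settings. Length and GC content were read from GENCODE release 29, using the transcript of middle length at the best APPRIS level, and 88.2% of tested genes had both. The correction was a loess (span 0.5) per library, and genes without values were left uncorrected. Shared windows are runs of 50 bases of that transcript found in another gene of GENCODE. The scripts were tested on simulated data.

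All 36 genes may be named; of the other pathway lists, up to 2 called genes per direction that reached 1 CPM in either group, and SLC7A11, TXNIP, BACH1, FTL and FTH1; 1 further gene of the rule is not reported here. The members and lists were chosen with earlier results of these data known. AGPS, RHOBTB3, SIRT7, ACAT2, WTAP, TXNRD2, TXNRD3, MSRB1 and SEPHS2 were named after their values were seen.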

Additional observations from a re-analysis of the deposited data

How the results depend on the processing

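The 20 calls higher in 3D became 16 to 21 over the 18 alternatives, and the 2 calls lower became 2 to 5; SOD2 and GCLC were called lower in all 18. Lower calls numbered 4 with DESeq2, with the replicate block, with that block and length and GC content corrected, and on protein-coding genes only. Leaving out 1 library gave 16 to 21 higher and 2 to 5 lower, the 5 without 3D replicate 3. For the other pathway genes, alternatives chosen after seeing the data, it gave 18 to 30 higher and 14 to 21 lower. Same-numbered samples did not deviate together (correlations 0.05, −0.01 and −0.08), and not every sample correlated best with its own number. With the replicate block 20 were higher, 19 of them also without it. The median of all genes stayed between 0.00 and 0.05 in every setting. Over the whole table, calls in either direction ranged from 3766 of 15800 genes (without 2D replicate 1) to 5638 of 15314 (TMM without mitochondrial and most abundant genes). The main fit called 5607 of 15314.

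Signs turned in genes that the test did not call. With length and GC content corrected, with or without the block, log2 fold changes were −0.02 for KEAP1 and SRXN1 and −0.04 for TXNRD1. TXNRD1 was at −0.01 without a low-count filter. Leaving out 2D replicate 2 and 3D replicate 1 gave 0.18 for GLRX and −0.17 for AKR1C3. Leaving out 1 library gave GCLM −0.07 to 0.10, TXNRD1 −0.08 to 0.09, SRXN1 −0.01 to 0.11, AKR1C1 −0.11 to 0.42 and AKR1C3 −0.09 to 0.17; the causes were not tested. Depth was lowest in 3D replicate 1. The least counted of the 36 genes, BLVRB, had 116 to 267 counts per library, so counting error bears most on it.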

Other observations

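Of the selenium-dependent glutathione peroxidases, GPX4 and GPX3 rose, and GPX1 rose but did not pass with length and GC content corrected (log2 0.24, edgeR adjusted p = 0.140). TXNRD1 (log2 0.01), GPX2 (0.52), TXNRD2 (0.22), TXNRD3 (0.06) and MSRB1 (0.30) did not pass, with edgeR adjusted p of 0.944, 0.0903, 0.277, 0.827 and 0.0746 in that order. Of 7 tested genes of selenium uptake and selenocysteine insertion, 2 rose and 3 fell, beside 19.0% and 17.6% of all tested genes (median log2 −0.14). The elongation factor EEFSEC, which rose (log2 0.46, edgeR adjusted p = 0.0414), lost its call in 9 of 18 alternatives, among them the length and GC correction (log2 0.21, edgeR adjusted p = 0.259). The 9 include leaving out any 1 library other than 3D replicate 2 (log2 0.33 to 0.54, edgeR adjusted p = 0.0566 to 0.189). LRP8, a receptor that takes up selenoprotein P, had 45.1, 37.0 and 32.3 CPM in 3D, against 17.9, 12.8 and 20.4 CPM in 2D (2.23-fold, edgeR adjusted p = 0.000904). SECISBP2, which recognises the selenocysteine signal, fell by 0.59 on the log2 scale (edgeR adjusted p = 0.00485). SEPHS2, at 242 CPM on average in 3D and 331 CPM in 2D, fell too (log2 −0.46, edgeR adjusted p = 0.0351). Its value in the alternatives was not examined. SEPSECS also fell (log2 −0.50, edgeR adjusted p = 0.0308). Its call was lost with length and GC content corrected (log2 −0.13, edgeR adjusted p = 0.523), also with the replicate block added. It was lost too without 3D replicate 3 or any 1 2D library (log2 −0.55 to −0.37, edgeR adjusted p = 0.0547 to 0.0974).

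Ratios within a library were computed for 6 pairs picked after their values were seen. Each was tested with an exact two-sided permutation test, whose smallest p in this design is 0.10. Because of that choice the p-values describe these pairs and are no test of them. The ratios were not corrected for length or GC content. GCLC to GCLM was 2.12, 1.94 and 2.10 in 3D and 3.20, 3.96 and 3.15 in 2D (CPM ratios, exact p = 0.10, Benjamini-Hochberg adjusted 0.12). SOD2 to SOD1 was 1.47, 1.32 and 1.20 in 3D, against 5.28, 6.40 and 4.0 in 2D. PRDX1 to SRXN1, a peroxiredoxin and the enzyme that repairs it, was 4.36, 5.19 and 5.70 in 3D and 2.29, 1.79 and 2.60 in 2D. KEAP1 to NFE2L2 was 0.707, 0.429 and 0.439 in 3D, against 0.321, 0.317 and 0.348 in 2D. TXN to TXNRD1 was 0.779, 1.01 and 1.24 in 3D and 0.588, 0.492 and 0.539 in 2D. The exact p was 0.10 for each of these 5 ratios. TXNIP to TXN overlapped between the cultures, at 0.963, 0.516 and 0.343 in 3D and 0.0987, 0.407 and 0.261 in 2D (exact p = 0.20).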
